A study of Mus musculus with 8 samples.

Results

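Carbonic anhydrases interconvert carbon dioxide and water with bicarbonate and a proton, and the 6 genes described here are Car2, Car3, Car4, Car8, Car13 and Car14. They were chosen by name from the 19938 genes measured on the arrays, each read by the 1 transcript cluster annotated to that symbol alone. Car2 and Car3 were picked because both had a higher mean in knockout muscle, so their differences between the genotypes are given as a description with no test. The other carbonic anhydrases on the array numbered 10 and are used for comparison.

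RNA came from the gastrocnemius, the large calf muscle, of 8 male mice aged 6 months that ate chow and were fasted for 5 h. The 4 knockout animals (Gcn5skm-/-) carried the HSAcre transgene and a floxed Gcn5 gene on both alleles (HSAcre Tg/0, Gcn5 L2/L2). The 4 wild-type animals (Gcn5skm+/+) carried the same floxed alleles without the transgene (HSAcre 0/0, Gcn5 L2/L2). In HSAcre the promoter of human skeletal actin drives Cre recombinase in muscle fibres, so vessels, blood cells, nerves and connective tissue in the sample keep Gcn5. Since knockouts alone carried the transgene, effects of Cre and of losing Gcn5 cannot be told apart. One Affymetrix array was run per animal, and their small number limits the precision.

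Working muscle makes carbon dioxide and acid, and its carbonic anhydrases are spread over several compartments. Car3 is a cytosolic form of low catalytic activity that is very abundant in slow muscle fibres, in fat cells and in liver. Car2 is a cytosolic form of very high activity found in many cells, red blood cells and osteoclasts among them, and Car13 is a further cytosolic form. Car4 is held on the outer cell surface by a lipid anchor and Car14 by a membrane-spanning segment, and both have been described at the muscle fibre membrane, Car4 also on capillary endothelium. Car8 is a related protein without carbonic anhydrase activity that binds the inositol trisphosphate receptor in Purkinje neurons.

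Kat2a, the gene for the acetyltransferase Gcn5, checked the labels. It measured 5.81, 5.84, 5.79 and 5.73 in knockouts 1 to 4, against 6.50, 6.46, 6.45 and 6.43 in wild types 1 to 4, on the log2 scale on which all values are given. Its difference, knockout minus wild type, was -0.66 (SE 0.08, limma adjusted p = 0.0319). This call did not survive leaving out any single knockout, wild type 3 or wild type 4 (limma adjusted p from 0.0619 to 0.137), although the difference then stayed between -0.68 and -0.64. Over all genes 3 passed a 5% false discovery rate, or 0.0150% of those tested, and 0 of the 14 carbonic anhydrases tested (all but Car2 and Car3) was among them. Array medians lay between 4.61 and 4.72. The array least like the rest was wild type 2, with a mean correlation of 0.987. Markers of fast fibres, which make up most of this muscle, were bright throughout, with a mean of 11.72 to 11.89 in knockouts and 11.84 to 11.92 in wild types.

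Car3 measured 12.30, 12.33, 12.36 and 12.29 in knockouts 1 to 4. In wild types 1 to 4 it measured 12.17, 12.13, 11.97 and 11.95. All 4 knockouts lay above all 4 wild types, with a gap of 0.11 between the nearest arrays, and the knockouts lay closer together than the wild types. The means were 12.32 ± 0.03 in knockout and 12.06 ± 0.11 in wild type (SD, n = 4 each), a difference of 0.26 (SE 0.09) or 1.20-fold. Groups that did not overlap with the knockouts above were seen in 1.48% of all genes, and nothing is read from Car3 being one of them, since it was picked for this contrast. Its mean signal stood at percentile 99.9 of all genes, and whether the top of the array's range limited the fold was not tested.

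Car2 measured 5.47, 6.14, 6.25 and 6.02 in knockouts 1 to 4, against 5.21, 5.89, 5.74 and 5.43 in wild types 1 to 4. The groups overlapped: knockouts 2, 3 and 4 lay above every wild type, while knockout 1 lay below wild types 2 and 3. Car2 averaged 5.97 ± 0.34 in knockout and 5.57 ± 0.30 in wild type (SD, n = 4 each). The difference of 0.40 (SE 0.18), or 1.32-fold, was larger than that of Car3 but so was the spread within each genotype. Without knockout 1 the difference of Car2 was 0.56, and without wild type 1 it was 0.28. The difference of Car3 ranged from 0.23 to 0.30 when any 1 array was left out.

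Car13, the remaining cytosolic member, was nearly level between the genotypes. It measured 4.19, 4.10, 4.27 and 4.33 in knockouts 1 to 4 and 4.30, 4.06, 4.25 and 4.11 in wild types 1 to 4, with the groups fully mixed. Its difference was 0.04 (95% interval -0.16 to 0.24, limma adjusted p = 0.965). The signal was dim, at percentile 33.8 of all genes, where RMA compresses differences.

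The membrane-bound members showed more spread than separation. Car4 measured 6.32, 7.05, 7.10 and 6.18 in knockouts 1 to 4, against 6.43, 6.68, 6.50 and 6.53 in wild types 1 to 4. Knockouts 2 and 3 lay above every wild type and knockouts 1 and 4 below every wild type. The means of Car4 were thus close, 6.66 ± 0.48 in knockout and 6.53 ± 0.10 in wild type (SD, n = 4 each), and the difference of 0.13 had a 95% interval of -0.28 to 0.54 (limma adjusted p = 0.940). Without knockout 2 it was -0.00168 and without knockout 3 it was -0.0177. Whether the SDs of the genotypes differ was not tested.

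Car14 measured 6.11, 6.50, 6.56 and 6.38 in knockouts 1 to 4, and 6.43, 6.40, 5.77 and 6.53 in wild types 1 to 4. Wild type 3 lay well below the other arrays, and the rest overlapped. The difference was 0.11 (95% interval -0.24 to 0.45, limma adjusted p = 0.940), and -0.06 without wild type 3.

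Car8, the member without enzymatic activity, measured 5.42, 5.89, 5.48 and 5.08 in knockouts 1 to 4 and 5.36, 5.49, 5.52 and 5.57 in wild types 1 to 4. Knockout 2 was the highest and knockout 4 the lowest of the 8 arrays, with all wild types between them. The difference was -0.02 (95% interval -0.32 to 0.29, limma adjusted p = 0.990), and 0.11 without knockout 4.

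**Figure D1:**
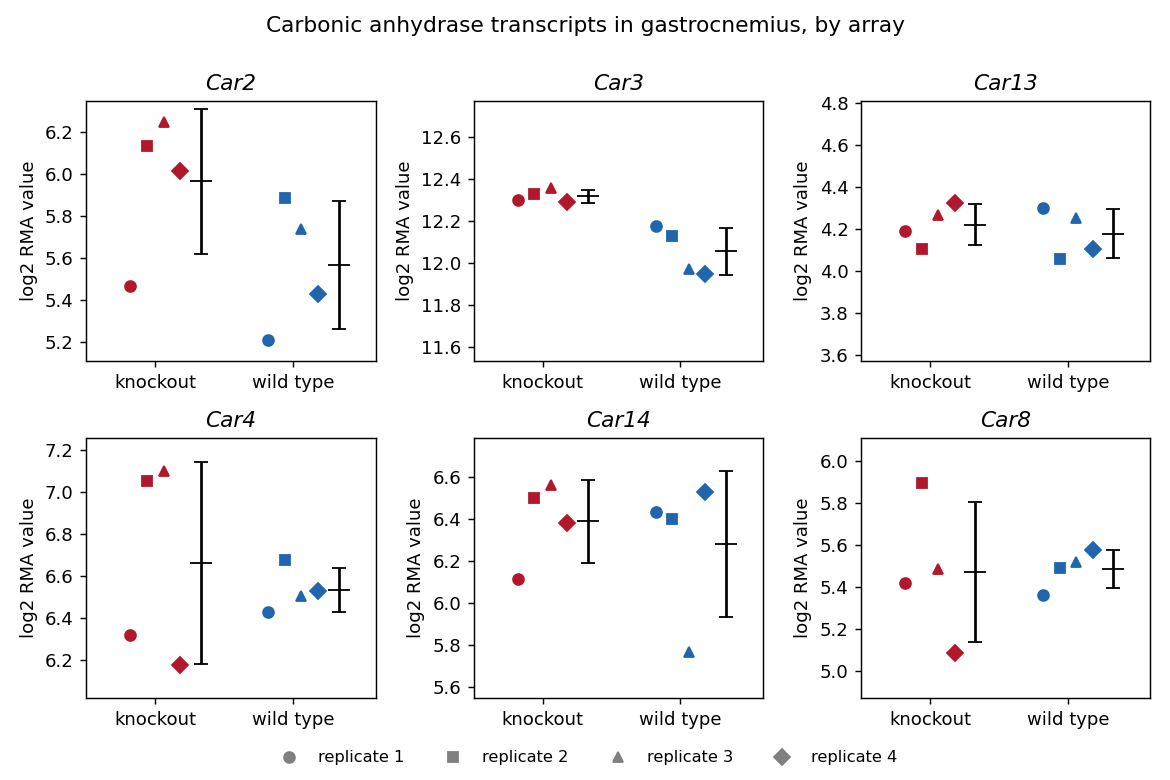
Log2 RMA values of the 6 carbonic anhydrases (y axis, the same height of scale in each panel) in knockout (red, left) and wild-type muscle (blue, right). Each marker is 1 animal, its shape gives the replicate number, and the black bar is the mean ± SD (n = 4). Car3 separates the genotypes, Car2 overlaps through knockout 1, and Car4 and Car8 spread more widely among the knockouts.

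Among the other 10 carbonic anhydrases, 5 had a higher and 5 a lower mean in knockout. Over all genes tested 0 of them passed the threshold, and the median of their differences was -0.01, equal to the -0.01 of all genes. Of the 10, 7 lay below the median brightness of all genes, Car12 among them, where RMA compresses differences. At an unadjusted p under 0.05 there was 1 of the 10, Car12, against 5.73% of all genes. Car12, a membrane-spanning form with its active site outside the cell, measured 3.67 ± 0.11 in knockout and 3.91 ± 0.17 in wild type (SD, n = 4 each; difference -0.24, limma adjusted p = 0.861).

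Car11, a family member without enzymatic activity, had the largest positive difference of these 10, 0.22 (7.50 ± 0.28 in knockout and 7.28 ± 0.23 in wild type, limma adjusted p = 0.876). Car7, a cytosolic form also known from muscle and brain, differed by 0.14, and Car1, the abundant red blood cell form, by 0.09. The mitochondrial forms Car5a and Car5b differed by -0.06 and -0.04. Car9, a membrane form induced by low oxygen in many tissues, measured 4.12 in both genotypes, while the secreted Car6 differed by -0.03 and the lipid-anchored Car15 by -0.11. Car10, another member without enzymatic activity, differed by 0.00185. The limma adjusted p values of these 10 genes lay between 0.861 and 0.999.

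**Figure D2:**
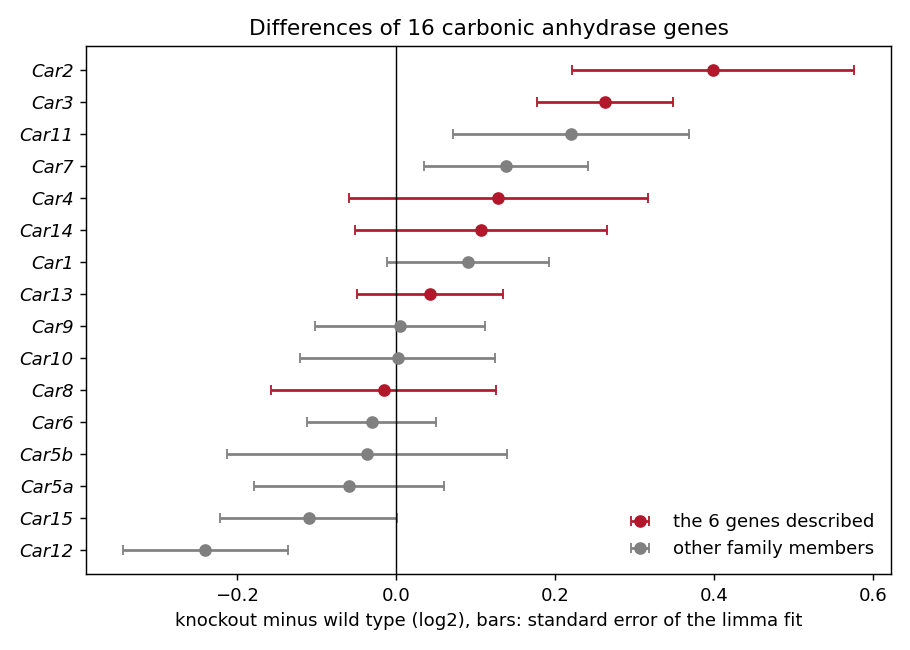
Difference between knockout and wild-type means (x axis, log2) for the 16 carbonic anhydrases, with the standard error of the limma fit as bars. Red points are the 6 genes described and grey points the other 10. Car2 at 0.40 and Car3 at 0.26, the genes picked for this difference, lie at the top and Car12 at -0.24 at the bottom.

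Car2 and Car3 are neighbours on chromosome 3, with no annotated gene between them in the GRCm38.p6 RefSeq gene table. The nearest protein-coding gene beyond Car3 is Car1, which measured 5.09, 5.34, 4.91 and 4.99 in knockouts 1 to 4, against 5.00, 4.94, 5.07 and 4.96 in wild types 1 to 4. The Car1 groups overlapped. The other neighbours within 3 genes of either side were long non-coding RNAs and pseudogenes and were not analysed here. The difference of Car1 was 0.09 (95% interval -0.13 to 0.31, limma adjusted p = 0.931), beside 0.26 for Car3 and 0.40 for Car2.

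Since Car3 is best known from slow fibres and fat cells, its values were set against the markers of both. The mean of 12 slow-fibre markers, slow myosin Myh7 and slow troponin Tnni1 among them, was 6.92, 7.92, 8.24 and 5.43 in knockouts 1 to 4 and 6.17, 7.74, 6.35 and 7.63 in wild types 1 to 4. Within the knockouts Car3 followed the same order, lowest in knockout 4 and highest in knockout 3, over a range of only 0.07. Among the wild types the order was another one: wild type 1, the lowest for slow-fibre markers, had the highest Car3 value, 12.17. All knockouts, knockout 4 included, lay above every wild type for Car3, which is the contrast it was picked for. Correlations of Car2 and Car3 over the 8 arrays take in the contrast these genes were picked for, so they are given with no p. Pearson's r of Car3 with the slow-fibre mean was 0.12 and Spearman's rho 0.40. The r was 0.50 without knockout 4 and wild type 1, the arrays farthest from the median slow-fibre level, and 0.09 for deviations from each genotype's mean. With the slow-fibre mean as a covariate in the fit the Car3 difference was 0.26 (SE 0.09). The part of the slow-fibre level in that difference was not tested. In whole muscle, fewer cells of a type and less RNA per cell cannot be told apart.

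Fat cell markers were compared in the same way. The mean of 13 measured adipocyte markers lay between 5.70 and 6.47 in knockouts and between 5.69 and 6.46 in wild types. Car3 had an r of -0.03 with it (0.15 without wild type 2 and knockout 1, and -0.04 for deviations from the genotype means) and a rho of 0.07. Of these 13 markers 7 had a higher and 6 a lower mean in knockout, and 0 passed the threshold.

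Car2 was compared with markers of red blood cells and macrophages. The 7 erythroid markers measured, of 16 listed, had a mean of 5.26 to 5.38 in knockouts and 5.11 to 5.32 in wild types. Of the 7, 4 lay below the median brightness of all genes, which limits this mean as a measure of red blood cells. Slc4a1 and Ermap, 2 of those dim genes, measured 4.27 and 4.26 in wild type 2, the array with the lowest mean. The 7 markers include Bpgm, the red cell bisphosphoglycerate mutase, and Epb42, a red cell membrane protein, which differed by 0.28 and -0.18. The haemoglobin genes were not analysed here. Car2 had an r of -0.11 with the erythroid mean (-0.31 without wild type 2 and knockout 4) and a rho of -0.07. For deviations from the genotype means r was -0.58, and the erythroid mean itself had a correlation of 0.51 with genotype. With the erythroid mean as a covariate in the fit the Car2 difference was 0.59 (SE 0.18), beside 0.40 without it. The part of the erythroid level in that difference was not tested.

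Macrophage markers stood higher in knockouts, as Car2 and Car3 did. Of 16 markers 15 had a higher mean in knockout, beside 9038 of all 19938 genes, although 0 passed the threshold. Their median difference was 0.20 beside -0.01 for all genes. Their mean was 5.73, 5.64, 5.89 and 6.25 in knockouts 1 to 4, and 5.49 to 5.62 in wild types, so knockout 2 lay only just above the highest wild type. In 3 of the 16 markers all knockouts lay above all wild types, as in 1.48% of all genes. The rise was uneven: Gpnmb measured 9.09 in knockout 4 but 5.32 in knockout 2. Tyrobp, an adaptor of myeloid receptors, differed by 0.65 and C1qb, part of complement C1q, by 0.42. The r of Car2 with the macrophage mean was 0.56 (0.36 without knockouts 3 and 4) and rho 0.74, and for deviations from the genotype means r was 0.25. The r of Car3 with it was also 0.56 (0.55 without knockouts 3 and 4) and rho 0.67, but for deviations from the genotype means r was -0.19. The part of the macrophage level in the Car2 and Car3 differences was not tested.

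Car4 ranged over 0.93 among the knockouts and over 0.25 among the wild types. Knockouts 3 and 2, with the highest slow-fibre means (8.24 and 7.92), had the highest Car4 values, and knockout 4, with the lowest (5.43), had the lowest Car4 value. This relation was examined after the data were seen, in a family of 51 that paired each of the 6 genes with 6 marker lists and with each other. Across the 8 arrays Car4 had an r of 0.85 with the slow-fibre mean (exact two-sided permutation p = 0.00729, adjusted 0.186) and a rho of 0.93 (exact permutation p = 0.00223, adjusted 0.114), which fail the correction over the 51. The r was 0.78 without knockout 4 and wild type 1, and 0.85 for deviations from each genotype's mean. Car4 had a like relation with the fast-fibre mean, with an r of 0.74 (exact permutation p = 0.0293, adjusted 0.280) and a rho of 0.83 (exact permutation p = 0.0154, adjusted 0.196). There r was 0.93 without knockout 4 and wild type 2, and 0.89 for deviations from the genotype means. The fast-fibre mean varied mostly through Myh2 and Myh1 (SD over the 8 arrays 0.87 and 0.44), with Mylpf next at 0.13. Its markers did not all move with Car4. Myh2 measured 10.12, 11.52, 11.46 and 9.03 in knockouts 1 to 4, but Mylpf 11.12, 10.84, 10.89 and 11.19. The relation is thus not one with fast-fibre markers as a whole. With the mean of 16 endothelial markers, a relation chosen for Car4's place on capillaries, r was 0.60 (exact permutation p = 0.128, adjusted 0.448 over 6 relations; r = 0.63 without wild type 4 and knockout 2) and rho 0.67 (exact permutation p = 0.0831, adjusted 0.249).

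Car8 shared part of this pattern. Among the same 51 relations its r with the endothelial mean was 0.79 (exact permutation p = 0.00233, adjusted 0.119) and its rho 0.88 (exact permutation p = 0.00724, adjusted 0.123), with r = 0.66 without wild type 4 and knockout 2. With the slow-fibre mean Car8 had an r of 0.74 (exact permutation p = 0.0264, adjusted 0.280; rho 0.62, exact permutation p = 0.115, adjusted 0.345). That relation rested on the arrays at the low end: r was 0.34 without knockout 4 and wild type 1. Car8 and Car4 had an r of 0.74 with each other (exact permutation p = 0.0285, adjusted 0.280; r = 0.83 without knockouts 2 and 3) and a rho of 0.67 (exact permutation p = 0.0831, adjusted 0.345). Car13 had an r of 0.70 with the erythroid mean (exact permutation p = 0.0329, adjusted 0.280; r = 0.23 without wild type 2 and knockout 4; rho 0.64, exact permutation p = 0.0962, adjusted 0.345). With Car8 its r was -0.68 (exact permutation p = 0.0417, adjusted 0.304; r = -0.53 without knockouts 2 and 4; rho -0.76, exact permutation p = 0.0368, adjusted 0.334). These were the 7 of the 51 relations with an unadjusted p under 0.05 for r, and 0 passed when adjusted over the 51. Outside those 7, Car13 had as high an r with the adipocyte mean, 0.70 (exact permutation p = 0.0627, adjusted 0.377; r = 0.75 without wild type 2 and knockout 1). The rho of that relation was 0.88 (exact permutation p = 0.00724, adjusted 0.123). Car14 had an r of 0.16 with the mean of fast-fibre markers (exact permutation p = 0.645, adjusted 0.943 over 6 relations; r = 0.51 without knockout 4 and wild type 2) and a rho of 0.45 (exact permutation p = 0.267, adjusted 0.490).

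**Figure D3:**
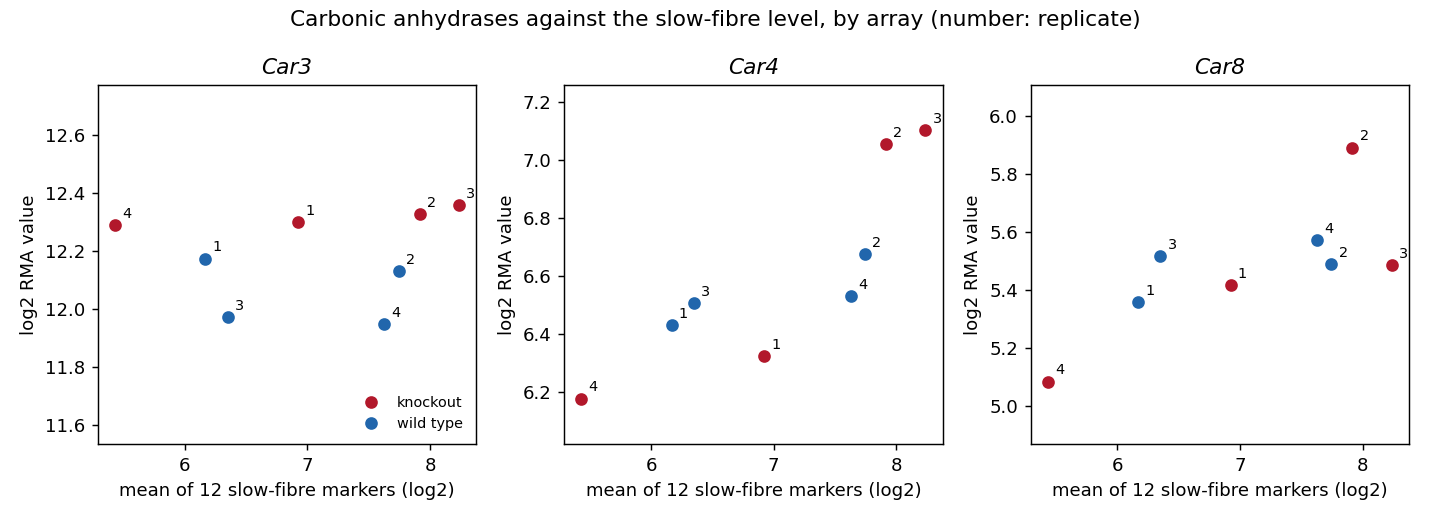
Log2 values of Car3, Car4 and Car8 (y axes) against the mean of 12 slow-fibre markers (x axis, log2) in knockout (red) and wild-type (blue) arrays, each numbered by its replicate. Car4 and Car8 are lowest of all arrays in knockout 4, where the slow-fibre mean is 5.43. Car3 stands at 12.29 in that array, the lowest of the knockouts but above all wild types, the contrast it was picked for.

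The genes whose values over the 8 arrays were most like each member were taken from 453 genes of at least median brightness and an SD of at least 0.3, and likeness was Pearson's r. For Car3 they were Plin3 (r = 0.96), a lipid droplet coat protein, Sntb1 (0.92), a syntrophin of the dystrophin complex, Lrtm1 (0.91), Dkk2 (0.89), a secreted Wnt regulator, and the pseudogene Rps19-ps3 (0.88). The knockout means of these 5 genes were higher by 0.62, 0.90, 1.49, 0.55 and 0.39. That follows in part from the choice, since they were taken for likeness to a gene picked for its rise in knockout. For deviations from each genotype's mean the r of Car3 was 0.84 with Plin3 and 0.52 with Lrtm1. Rps19-ps3 may share signal with its parent gene.

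For Car2 the most alike genes were Angpt1 (r = 0.93), a vessel-stabilising growth factor, Dhrs4 (0.82), a dehydrogenase, Flvcr1 (0.80), known as a haem exporter, Ankrd33b (0.80) and Ddah1 (0.77), which breaks down methylated arginines. Angpt1 measured 5.31 ± 0.52 in knockout and 4.70 ± 0.47 in wild type (SD, n = 4 each), and its r with Car2 was 0.89 for deviations from the genotype means. For Car4 they were Ramp1 (0.95), a receptor activity-modifying protein, Alad (0.95), an enzyme of haem synthesis, and Fgf1 (0.94), a fibroblast growth factor. For Car8 they were Npr2 (0.91), a natriuretic peptide receptor, Padi2 (0.89), a peptidylarginine deiminase, and Pln (0.89), which inhibits the calcium pump of slow fibres.

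For Car13 the most alike were Hp (0.90), which encodes haptoglobin, Mymx (0.87), a myoblast fusion protein, and Fam155a (0.87). Car14 had less close matches, Timp4 (0.78), a metalloproteinase inhibitor, Sh3rf2 (0.76) and Plekhf1 (0.76). The best of 453 genes over 8 arrays is high by selection, so these are descriptions. Likeness to Car2 or Car3 also takes in the contrast those genes were picked for, so the differences of their matches are no separate result.

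Carbonic anhydrases work with carriers of bicarbonate, protons and lactate. Of 12 measured bicarbonate carriers 3 had a higher and 9 a lower mean in knockout, 0 passed, and the median difference was -0.07 (all genes -0.01). Slc4a10, a sodium-dependent bicarbonate transporter best known from neurons, measured 3.73, 3.81, 3.50 and 4.24 in knockouts 1 to 4, against 4.31, 4.63, 4.64 and 4.58 in wild types 1 to 4. All 4 knockouts lay below all wild types, as in 2.14% of all genes, at a dim signal (difference -0.72, SE 0.14, limma adjusted p = 0.205). Slc4a5, another sodium bicarbonate cotransporter, differed by -0.22 (limma adjusted p = 0.861).

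Of 18 measured carriers of protons, lactate, water and ammonia 6 had a higher and 12 a lower mean in knockout, 0 passed, and the median difference was -0.05. The sodium-proton exchanger Slc9a2 measured 6.96 ± 0.14 in knockout and 7.27 ± 0.09 in wild type (SD, n = 4 each; difference -0.31, limma adjusted p = 0.768). All its knockouts lay below all wild types, as in 2.14% of all genes, and it was named for its small p within this list. Slc16a7, a monocarboxylate carrier, differed by 0.33 (limma adjusted p = 0.861). Outside the rule for named genes, and chosen for their role in muscle after values were seen, the lactate carriers Slc16a1 and Slc16a3 differed by -0.16 and -0.06 and their chaperone Bsg by 0.05, with limma adjusted p values of 0.924, 0.949 and 0.954. The sodium bicarbonate cotransporter Slc4a4, also outside that rule, measured 7.57 ± 0.17 in knockout and 7.55 ± 0.07 in wild type (SD, n = 4 each).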

How the data were processed

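Gastrocnemius RNA of 8 mice was hybridised to 1 array each. Per the labels' protocols, 100 ng of total RNA was amplified and 5500 ng of cDNA labelled. The authors deposited 1 table of log2 values, for which the submitters' processing notes name RMA and Affymetrix Expression Console; RMA removes background, applies quantile normalization and combines probes, and it compresses differences of dim transcripts. The version and build are not given in the sources used here. Of 35556 transcript clusters, 21789 had 1 gene symbol in the array annotation, 1621 had several and 12146 were unnamed here; by Entrez number 21698 matched the GRCm38.p6 RefSeq gene table. A gene with several clusters was read by the one with the highest mean, which left 19938 genes.

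Groups came from the titles. The genotypes were compared in limma 3.58.1 (lmFit, eBayes; R 4.3.3), p values were adjusted over all genes by Benjamini-Hochberg, and the threshold was 0.05. No batch is given in the labels. Nothing in the labels says that replicate numbers pair animals, and the correlations of same-numbered arrays' deviations (0.09, 0.07, 0.22 and -0.10) did not pair them. Correlations across arrays used exact permutation of pairings. On simulated data with 200 changed genes of 19938, the fit for this comparison called 59.2% of genes changed by 0.5 and 99.6% of those changed by 1. The simulated noise was normal and independent between genes, and 200 genes were changed, whereas 3 genes passed in the data. Those shares therefore do not give the sensitivity on the real arrays, where Slc4a10, with a difference of -0.72, was not called.

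The members and lists were chosen with earlier results of these data known. By rule, named genes were Kat2a, the family, the 2 smallest p per list (or up to 4 past the threshold), the most alike genes and the neighbours of Car2 and Car3. Outside this rule, and with values known, Gpnmb, Slc4a1, Ermap, Myh1, Mylpf, Slc4a4, Slc16a1, Slc16a3 and Bsg were also described. Myh7 and Tnni1 were named as examples of their list. Alternatives were other normalizations, filters on dim genes, averaged clusters, a replicate block, array weights, an intensity trend, marker covariates and leaving out each array. A planned comparison of protein and promoter sequences of the members was not made, and no sequence is shown. Figures were drawn with matplotlib 3.10.9.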

Additional observations from a re-analysis of the deposited data

Results flagged for a closer look

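In 34 groups of 4 arrays (16 carbonic anhydrases and Kat2a in each genotype) a single array stood apart by Dixon's criterion in 4, where chance gives about 5% of groups. Car14 measured 5.77 in wild type 3, against 6.40 in the nearest wild type. Car12 measured 3.51 in knockout 2, against 3.71 in the nearest knockout. Car6 and Car15 measured 3.17 and 3.75 in wild type 2, against 3.27 and 4.13 in the nearest wild types. Wild type 2 was also the array with the lowest mean correlation with the others, and its part in those values was not tested.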

How the results depend on the processing

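With 4 arrays a group, the median SE of a difference was 0.11, and dim genes such as Car13 carry compressed differences. The Car2 difference ranged from 0.28 (without wild type 1) to 0.59 (erythroid mean as covariate) over 18 alternatives and that of Car3 from 0.23 to 0.30, with both above 0 in each of them. Car4, Car8, Car13 and Car14 passed the threshold in 0 of their alternatives (limma adjusted p of at least 0.845), but signs near 0 turned. When each array was left out in turn, Car4 ranged from -0.0177 to 0.29, below 0 without knockout 2 (-0.00168) or knockout 3 (-0.0177). Car8 ranged from -0.16 to 0.11, above 0 without knockout 1 (0.00205), knockout 4 (0.11) or wild type 4 (0.01), and Car14 from -0.0647 (without wild type 3) to 0.20. The filter on the dimmest 50% leaves Car13 out and gives it no value. With array weights Car8 was 0.0431 and Car13 -0.0165. The Kat2a difference ranged from -0.68 to -0.64 without 1 array and lost its call in 6 of 8 such fits. With the replicate number as a replicate block it was -0.66 (limma adjusted p = 0.113) and 0 genes passed over all genes; the block changed no other call. The count of genes past the threshold, 3, was 0 to 5 without 1 array, 11 and 13 without the dimmest 25% and 50% of genes, and 17 with an intensity trend and robust prior. Left-out arrays also turned the sign of weak correlations: Car3 with slow-fibre markers ranged from -0.12 to 0.39 (-0.00932 without knockout 2, -0.12 without knockout 3 and -0.05 without wild type 3), Car3 with adipocyte markers from -0.18 to 0.18 (0.18 without knockout 1, 0.02 without knockout 2 and 0.10 without wild type 4), and Car2 with erythroid markers from -0.29 to 0.0146 (0.0146 without wild type 1 and 0.00690 without wild type 2).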
